A study of Rattus norvegicus with 40 samples.

Results

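The transporters described here are the rat genes whose symbols in the annotation of the array begin with Slco, Slc22a, Abcb, Abcc or Abcg, without Slc22a5, Abcb11 and Abcg1. There were 49 such genes among 13438 genes with a named probe set, and each was read by its brightest probe set over the 40 arrays. They comprise 13 organic anion transporting polypeptides (OATPs, Slco), 15 members of the organic cation and anion carrier family (Slc22a, 5 of the cation branch and 10 of the anion branch and other branches), 6 Abcb genes, 9 Abcc genes and 6 Abcg genes. Slco4c1 and Abcb1b had no probe set of their own and are not analysed here.

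The rats were adult male Sprague Dawley SD:CD animals, in 4 groups of 10. Vehicle alone, or 0.1, 1 or 10 mg/kg of GW7647, was given daily by gavage for 4 days, and liver was taken 24 h after the last dose. GW7647 is a synthetic ligand that activates PPAR-alpha, a nuclear receptor for fatty acids. Total RNA of each liver was read on 1 Affymetrix array after 3' labelling, and the deposited values are log2 levels per probe set.

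Hepatocytes take up bile acids, steroid conjugates, prostaglandins and drugs from the sinusoidal blood through carriers of the Slco and Slc22a families, which work without ATP. ABC transporters use ATP to export such compounds: into bile across the canalicular membrane (Abcb1a, Abcb4, Abcc2, Abcg2, Abcg5 and Abcg8) or back into blood across the basolateral membrane (Abcc1, Abcc3, Abcc4 and Abcc6). Ligands of PPAR-alpha act through a complex with RXR, which binds direct repeats of the hexamer AGGTCA with 1 base between the repeats.

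The level of the whole array moved with dose, so that calls were made on 2 scales. A change given once and without a scale is on the deposited scale. The median log2 change of all genes against vehicle was 0.16 at 1 mg/kg and 0.26 at 10 mg/kg on the deposited scale, and -0.01 and -0.02 after quantile normalization of all 40 arrays. The words rose and fell are kept for genes whose Benjamini-Hochberg adjusted p in limma over all 13438 genes was under 0.05 with the same sign on both scales. On the deposited scale 88% of the genes called at 10 mg/kg were higher, after quantile normalization 45.6%, and a rule that asks for both scales keeps more rises than falls. Poly-A control transcripts, which are added to the RNA before labelling, also moved, with group means of 5.57, 5.84, 6.22 and 6.56 from vehicle to 10 mg/kg. The difference between the 3' and 5' probe sets of actin, a sign of RNA quality and labelling length, had means of 2.78, 2.85, 3.11 and 3.22, with single arrays at 1 mg/kg up to 4.42, and its part in the changes of transporters was not tested. The PPAR-alpha target Cyp4a1, an omega-hydroxylase of fatty acids, was 1.86-fold, 7.65-fold and 9.59-fold higher at the 3 doses (adjusted p = 3.43e-07, 3.00e-25 and 3.48e-27). Hepatocyte markers averaged 12.73 ± 0.05 in vehicle and 12.68 ± 0.07 at 10 mg/kg (SD, n = 10 each), and 0 of the 5 measured rose and 1 fell at 10 mg/kg. All 4 measured Kupffer cell markers fell at 10 mg/kg, and their mean went from 7.55 (7.20 to 7.81) to 6.75 (6.28 to 7.15); their part in the changes of transporters was not tested. In whole liver, fewer cells of a type and less RNA per cell cannot be told apart.

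At 10 mg/kg 16 of the 49 transporters rose and 6 fell, beside 20.4% and 7.69% of all genes. The rises were led by Slc22a17, Slc22a23 and Abcg2, each at least 2.0-fold on the deposited scale, and the falls among genes that reached log2 5 in a group mean were those of the hepatic uptake carriers Slco2b1 and Slco1b2. At 1 mg/kg 8 transporters rose and 2 fell, beside 11.1% and 3.37% of all genes: Slc22a7, Slc22a15, Slc22a17, Slc22a23, Slc22a25, Slco2a1, Abcc4 and Abcg4 rose, and Abcb1a and Abcg8 fell. At 0.1 mg/kg 0 rose and 0 fell, beside 0.0819% and 0.00744% of all genes: 5 of the 49 had an unadjusted p under 0.05 as deposited and 4 when quantile normalized, and limma's smallest adjusted p among them was 1. Of all 13438 genes, 587 had an unadjusted p under 0.05 as deposited and 548 when quantile normalized. The changes of the transporters at that dose ran from -0.38 to 0.29 on the log2 scale with a median SE of 0.10. By limma's F test over the 3 doses, 23 of 49 transporters passed on both scales, beside 34.2% of all genes. The median change of the 49 was 0.22 at 1 mg/kg and 0.37 at 10 mg/kg on the deposited scale, and 0.09 at both doses after quantile normalization.

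Of the 49 transporters 19 had a mean of log2 5 or more in at least 1 group. Group means of the other 30 ran up to 4.99 (Abcc9 at 0.1 mg/kg). Many of these genes lay near the lower end of the scale, where folds depend on the background correction. Among the 19, 8 rose and 2 fell at 10 mg/kg, beside 26.2% and 9.41% of the 5810 genes above that level. At 1 mg/kg 4 of the 19 rose and 0 fell, beside 13.7% and 2.25%. The members' own shares were 42.1% and 10.5% at 10 mg/kg and 21.1% and 0% at 1 mg/kg, and the difference from all genes was not tested.

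**Figure D1:**
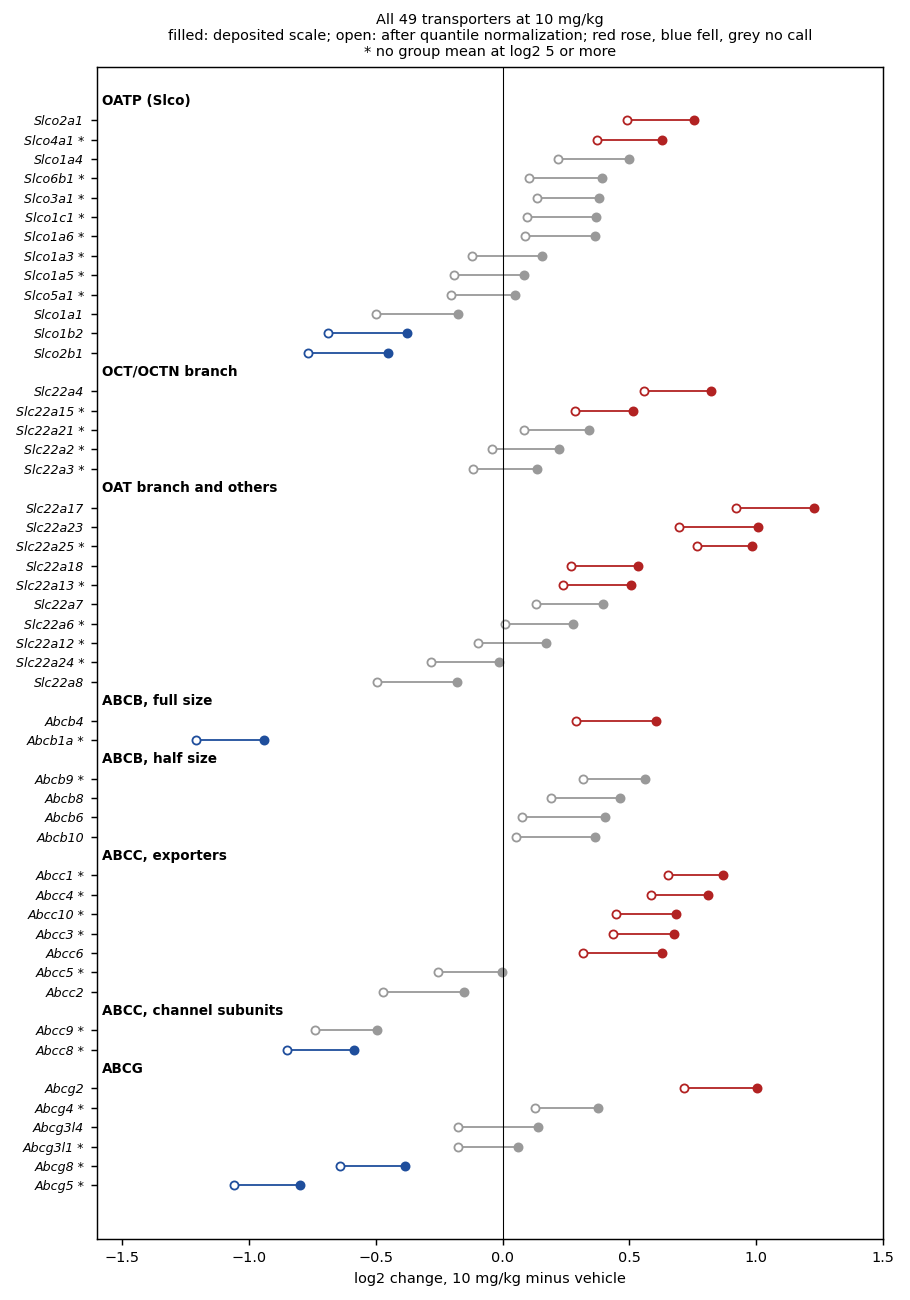
Log2 change between 10 mg/kg and vehicle (horizontal axis) for all 49 transporters, by family. Filled points are the deposited scale and open points the values after quantile normalization. The 16 genes in red rose and the 6 in blue fell on both scales, and each open point lies to the left of its filled point.

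Among the OATPs, 2 of 13 rose and 2 fell at 10 mg/kg, beside 20.4% and 7.69% of all genes. Differences between single families and all genes were not tested. Slco2a1, the prostaglandin transporter, ran from 9.56 to 10.07 with a median of 9.86 on the vehicle arrays, from 9.60 to 10.25 (median 9.73) at 0.1 mg/kg, from 10.03 to 10.88 (median 10.24) at 1 mg/kg and from 10.22 to 11.05 (median 10.61) at 10 mg/kg. All 10 arrays of the highest dose lay above all vehicle arrays on the deposited scale, whereas the groups overlapped after quantile normalization. The gene was 1.37-fold higher at 1 mg/kg (log2 change 0.45, SE 0.10, adjusted p = 2.97e-04) and 1.69-fold higher at 10 mg/kg (log2 change 0.75, SE 0.10, adjusted p = 2.35e-08). After quantile normalization the folds were 1.22 (adjusted p = 0.033) and 1.41 (adjusted p = 1.03e-04). Endothelial cells are known to carry Slco2a1 in many organs. The 4 measured markers of sinusoidal endothelial cells of liver averaged 6.76 in vehicle and 6.78 at 10 mg/kg (6.89 and 6.61 after quantile normalization). Of these 0 rose and 1 fell, and the part of these cells in the change of Slco2a1 was not tested. The call of Slco2a1 at 1 mg/kg was lost with scaling to hybridisation controls (adjusted p = 0.0963), with the poly-A covariate (0.246) and with arrays 1 to 4 of that group alone (0.195). Its log2 change at 1 mg/kg was 0.40 on arrays 1 to 4 and 0.49 on arrays 5 to 10.

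Slco2b1, which carries steroid sulphates, fell. Its level ran from 7.25 to 7.83 (median 7.57) in vehicle, from 7.03 to 7.69 (median 7.47) at 0.1 mg/kg, from 7.21 to 7.79 (median 7.37) at 1 mg/kg and from 6.83 to 7.31 (median 7.10) at 10 mg/kg. On the deposited scale 8 of the 10 arrays at 10 mg/kg lay below every vehicle array, and after quantile normalization all 10 did (6.66 to 7.13 against 7.36 to 7.98). The log2 change at 10 mg/kg was -0.45 (SE 0.08, adjusted p = 5.44e-06), and -0.77 after quantile normalization (adjusted p = 3.12e-11). A second probe set of Slco2b1, at 6.17 ± 0.33 in vehicle and 5.35 ± 0.36 at 10 mg/kg (SD, n = 10 each), fell as well (log2 change -0.83), and the third stayed at about 2 on the log2 scale in both groups (1.75 and 2.02).

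Slco1b2, the liver-specific carrier of bile acids, bilirubin conjugates and statins, ran from 8.52 to 9.17 (median 8.86) in vehicle and from 8.05 to 9.03 (median 8.36) at 10 mg/kg, with 6 of 10 arrays below every vehicle array. The change at 10 mg/kg was -0.38 (SE 0.15, adjusted p = 0.0289), and -0.69 after quantile normalization (adjusted p = 3.30e-04). Arrays at 1 mg/kg spread more widely, from 7.87 to 9.36 (SD 0.51), and that group had no call. A second probe set at 7.74 ± 0.30 in vehicle (SD, n = 10) fell at both doses, with log2 changes of -0.50 at 1 mg/kg and -0.68 at 10 mg/kg. With the poly-A control level as a covariate the change of the main probe set at 10 mg/kg was -0.18 (adjusted p = 0.419), and the part of RNA handling in it was not tested.

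The remaining OATPs of liver did not pass on both scales. Slco1a1, a bile acid and steroid carrier, had a mean of 8.18 ± 0.35 in vehicle and 8.0 ± 0.15 at 10 mg/kg, a change of -0.18 (adjusted p = 0.16) that was -0.50 after quantile normalization (adjusted p = 2.26e-04). Slco1a4, the digoxin carrier next to it, went from 9.44 ± 0.60 to 9.94 ± 0.39, a change of 0.50 (adjusted p = 0.0191) that was 0.22 after quantile normalization (adjusted p = 0.356). Vehicle array 1 had the lowest Slco1a4 level, at 7.94 against 9.14 for the nearest array. Of the 8 OATPs near the lower end of the scale only Slco4a1, which carries thyroid hormones, was called at 10 mg/kg (1.93 ± 0.20 to 2.55 ± 0.36, adjusted p = 1.79e-06, and 0.00274 after quantile normalization). A second probe set of Slco4a1 went from 1.76 to 1.97 with no call. Its log2 change was 0.21 (adjusted p = 0.00354), and -0.06 after quantile normalization (adjusted p = 0.449). In the RefSeq gene order Slco1c1, Slco1b2, Slco1a4, Slco1a1, Slco1a3, Slco1a6 and Slco1a5 follow each other on chromosome 4, and in this cluster only Slco1b2 had a call at 10 mg/kg.

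The promoter of Slco1b2 is shown because it holds the hexamer in a member that fell. The window covers 250 bases before to 50 bases after the gene's start (RefSeq, GRCr8, chr4:176282334-176282633, plus strand), and the hexamer, on the minus strand and therefore printed as its reverse complement, is in capitals at position -78 from the start.
Slco1b2: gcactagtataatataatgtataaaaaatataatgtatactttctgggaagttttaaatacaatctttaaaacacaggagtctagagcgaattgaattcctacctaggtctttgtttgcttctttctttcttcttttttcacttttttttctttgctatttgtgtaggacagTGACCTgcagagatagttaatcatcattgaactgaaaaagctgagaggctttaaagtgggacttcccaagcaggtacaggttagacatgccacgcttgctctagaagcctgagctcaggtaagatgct

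In the cation branch of Slc22a, 2 of 5 genes rose and 0 fell at 10 mg/kg, beside 20.4% and 7.69% of all genes. Slc22a4, the ergothioneine carrier, ran from 3.70 to 4.77 (median 4.27) in vehicle and from 3.42 to 5.93 (median 5.29) at 10 mg/kg. The groups overlapped: array 2 of the highest dose was the lowest of all at 3.42, the next at 4.71 also lay below the highest vehicle array, and 8 of 10 arrays lay above every vehicle array. The gene was 1.77-fold higher (log2 change 0.82, SE 0.21, adjusted p = 9.13e-04), and 1.47-fold after quantile normalization (adjusted p = 0.0234). With the poly-A controls as a covariate the larger adjusted p of both scales was 0.35. Slc22a15, an organic ion carrier that was singled out after its values were seen, was highest at the middle dose, with means of 2.93 ± 0.20, 2.91 ± 0.28, 3.92 ± 0.31 and 3.45 ± 0.22 from vehicle to 10 mg/kg (SD, n = 10 each). It rose at 1 mg/kg (log2 change 0.99, adjusted p = 6.60e-09, 0.76 after quantile normalization) and fell from 1 to 10 mg/kg (log2 change -0.47, adjusted p = 0.00155, and -0.48 after quantile normalization). Against vehicle its rise at 10 mg/kg was 0.51 (adjusted p = 1.57e-04), and 0.29 after quantile normalization (adjusted p = 0.0283), and this call was lost with scaling to hybridisation controls and with the poly-A covariate. Slc22a3, a carrier of monoamines, stayed at 2.26 ± 0.17 in vehicle and 2.4 ± 0.15 at 10 mg/kg with no call.

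In the anion branch and other branches, 5 of 10 genes rose and 0 fell at 10 mg/kg, beside 20.4% and 7.69% of all genes. Slc22a17, known as a receptor for the iron-binding protein lipocalin-2, had the largest rise of the 49 on both scales. Its level ran from 5.18 to 6.31 (median 5.84) in vehicle, from 5.62 to 6.09 (median 5.90) at 0.1 mg/kg, from 6.28 to 7.15 (median 6.61) at 1 mg/kg and from 6.79 to 7.26 (median 7.02) at 10 mg/kg. Every array at 10 mg/kg lay above every vehicle array on the deposited scale, and likewise once quantile normalized (6.61 to 7.07 against 5.29 to 6.49). No other transporter rose without overlap on both scales, and the share of all genes that did so is not given here. It was 1.83-fold higher at 1 mg/kg (log2 change 0.88, SE 0.10, adjusted p = 9.75e-09) and 2.34-fold higher at 10 mg/kg (log2 change 1.23, SE 0.10, adjusted p = 3.38e-13). After quantile normalization these were 1.55-fold (adjusted p = 3.80e-05) and 1.89-fold (adjusted p = 6.17e-09).

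Slc22a23, an orphan carrier, ran from 6.74 to 7.89 (median 7.30) in vehicle, from 6.87 to 7.62 (median 7.47) at 0.1 mg/kg, from 7.67 to 8.71 (median 8.0) at 1 mg/kg and from 7.89 to 8.80 (median 8.38) at 10 mg/kg. The lowest array of the highest dose and the highest vehicle array nearly met on the deposited scale, and the groups overlapped after quantile normalization. The gene was 1.60-fold higher at 1 mg/kg (adjusted p = 4.34e-05) and 2.01-fold higher at 10 mg/kg (adjusted p = 1.10e-08), or 1.35-fold (adjusted p = 0.0105) and 1.62-fold (adjusted p = 2.17e-05) after quantile normalization. A second probe set, near the lower end of the scale at 2.50 ± 0.27 in vehicle and 3.01 ± 0.45 at 10 mg/kg, passed on the deposited scale (adjusted p = 0.00588) and not after quantile normalization (adjusted p = 0.192). At 1 mg/kg arrays 1 to 4, whose poly-A controls were low, gave a smaller change than arrays 5 to 10 (0.53 and 0.78), and with arrays 1 to 4 alone the rise at 1 mg/kg had no call (adjusted p = 0.228), nor had it with the poly-A covariate (0.0984).

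Slc22a25, an organic anion carrier of unsettled substrates, had the second largest rise after quantile normalization. On the deposited scale it ran from 2.02 to 3.57 (median 2.76) in vehicle, 3.23 to 3.97 (median 3.59) at 1 mg/kg and 3.39 to 4.29 (median 3.75) at 10 mg/kg. It was 1.98-fold higher at 10 mg/kg (adjusted p = 5.23e-08), and 1.70-fold after quantile normalization (adjusted p = 1.49e-05), but all of its group means lay below log2 5. Slc22a18, an imprinted carrier, rose at 10 mg/kg from 9.90 ± 0.20 to 10.44 ± 0.11 (1.45-fold, adjusted p = 3.08e-09, and 1.21-fold after quantile normalization, adjusted p = 0.00137); with the poly-A covariate the larger adjusted p was 0.0867. Slc22a7, an organic anion carrier of liver, rose at 1 mg/kg from 9.56 ± 0.16 to 9.93 ± 0.10 (adjusted p = 7.96e-06, and 0.0135 after quantile normalization). At 10 mg/kg its mean was 9.96 ± 0.07, and the change of 0.40 was 0.13 after quantile normalization (adjusted p = 0.0697), so it had no call there. The call of Slc22a7 at 1 mg/kg was lost with scaling to hybridisation controls (adjusted p = 0.203) and with the poly-A covariate (0.0543), and that of Slc22a25 at 1 mg/kg with arrays 1 to 4 alone (0.125). The log2 change of Slc22a25 at 1 mg/kg was 0.61 on arrays 1 to 4 and 0.96 on arrays 5 to 10.

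Slc22a8, a carrier of organic anions and drugs, had 2 probe sets that differed in their call. The one with the higher mean went from 8.47 ± 0.54 to 8.29 ± 0.33 at 10 mg/kg, with no call (adjusted p = 0.384, and 0.0238 after quantile normalization). The other went from 6.69 ± 0.65 to 5.90 ± 0.35 and was lower on both scales (log2 change -0.79, adjusted p = 0.00219, and -1.08 after quantile normalization, adjusted p = 1.90e-04). In RefSeq's order Slc22a25, Slc22a8 and Slc22a6 are neighbours on chromosome 1, and of these only Slc22a25 rose.

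The promoters of Slc22a23 and Slc22a25 are shown as the members with the largest rises that hold the hexamer, which is in capitals. They cover 250 bases before to 50 bases after the start (RefSeq, GRCr8): chr17:30749195-30749494 on the plus strand for Slc22a23, with the hexamer at position -7 from the start, and chr1:214862291-214862590 on the minus strand for Slc22a25, with the hexamer at position -110.
Slc22a23: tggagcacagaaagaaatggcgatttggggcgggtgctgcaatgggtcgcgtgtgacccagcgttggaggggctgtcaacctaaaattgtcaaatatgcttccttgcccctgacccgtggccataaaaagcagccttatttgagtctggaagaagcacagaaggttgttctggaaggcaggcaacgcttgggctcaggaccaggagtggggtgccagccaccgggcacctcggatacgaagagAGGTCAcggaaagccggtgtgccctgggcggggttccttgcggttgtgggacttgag
Slc22a25: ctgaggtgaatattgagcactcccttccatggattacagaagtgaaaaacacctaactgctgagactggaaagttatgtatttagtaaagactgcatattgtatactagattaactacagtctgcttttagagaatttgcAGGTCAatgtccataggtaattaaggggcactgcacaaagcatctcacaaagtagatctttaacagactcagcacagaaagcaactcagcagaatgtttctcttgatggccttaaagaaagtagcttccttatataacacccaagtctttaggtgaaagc

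Promoter windows of 300 bases were found for 43 of the 49 transporters. The hexamer AGGTCA on either strand was in 9 of them, 20.9%, beside 15.7% of 27457 rat promoter windows. It was in 3 of 15 transporters that rose at 10 mg/kg and in 1 of 5 that fell. A direct repeat of AGGTCA with 1 base between was in 0 of the 43 and in 0.0583% of all windows, and with AGGNCA in both repeats in 0 of the 43 and in 0.412%. The letters are a description of these windows, which leave out more distant sequence, and say nothing about binding.

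**Figure D2:**
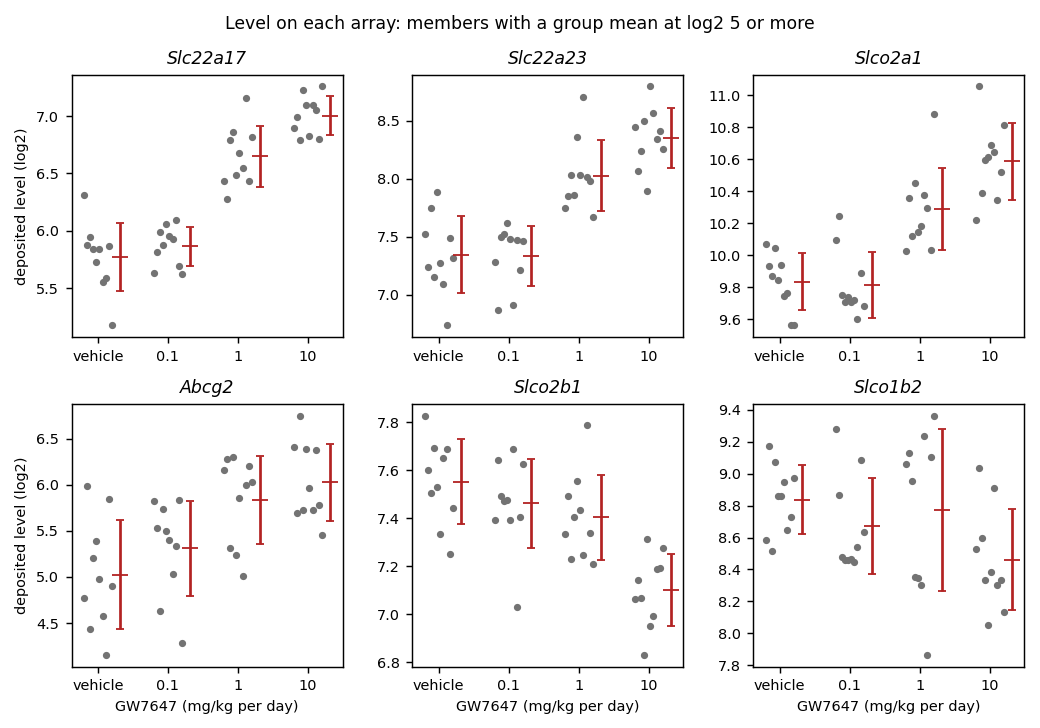
Deposited log2 level (vertical axis) on each of the 10 arrays per group (grey points) by daily dose of GW7647 (horizontal axis), with mean and SD in red, for 6 transporters that reach log2 5 in a group mean. At 10 mg/kg Slc22a17, Slco2a1 and, only just, Slc22a23 lie above all vehicle arrays. Abcg2 is higher and overlaps with vehicle, while Slco2b1 and Slco1b2 lie lower and overlap with vehicle.

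The full-size Abcb genes moved in opposite directions. Abcb4, the canalicular flippase for phosphatidylcholine, ran from 5.98 to 6.82 (median 6.50) in vehicle, 6.08 to 6.68 (median 6.37) at 0.1 mg/kg, 6.63 to 7.21 (median 7.04) at 1 mg/kg and 6.47 to 7.74 (median 7.09) at 10 mg/kg, with 8 of 10 arrays at the highest dose above all vehicle arrays. It rose 1.52-fold at 10 mg/kg (log2 change 0.61, SE 0.11, adjusted p = 1.36e-05), and 1.22-fold after quantile normalization (adjusted p = 0.0406). That last value was close to the threshold: the larger adjusted p of both scales was 0.056 with the replicate number as a block, 0.0794 with only the 2 groups compared and 0.335 with the poly-A controls as a covariate.

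Abcb1a, a P-glycoprotein that exports drugs into bile, ran from 2.56 to 3.45 (median 3.03) in vehicle, 2.14 to 3.24 (median 2.72) at 0.1 mg/kg, 2.11 to 3.29 (median 2.61) at 1 mg/kg and 1.88 to 2.46 (median 2.06) at 10 mg/kg. Every array at 10 mg/kg lay below every vehicle array on both scales. The log2 change was -0.41 at 1 mg/kg (adjusted p = 0.0105) and -0.94 at 10 mg/kg (SE 0.13, adjusted p = 6.37e-08), and -0.54 (adjusted p = 0.0012) and -1.21 (adjusted p = 1.30e-10) after quantile normalization. These levels are near the lower end of the scale. A second probe set of Abcb1a, at 1.90 ± 0.23 in vehicle, was 2.01 ± 0.11 at 10 mg/kg, and a probe set shared by Abcb1a and Abcb1b was 3.09 ± 0.24 and 3.10 ± 0.40 (SD, n = 10 each), neither with a call.

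The 4 Abcb genes that code for short proteins, which work as dimers and of which Abcb6, Abcb8 and Abcb10 are known from mitochondria and Abcb9 from lysosomes, had no call on both scales at 1 or 10 mg/kg. At 10 mg/kg their changes on the deposited scale lay between 0.37 and 0.56 and all 4 passed there, and after quantile normalization they lay between 0.05 and 0.32 and 0 passed. Of all 13438 genes 7593 were called higher on the deposited scale at that dose and 2748 after quantile normalization, and 20.4% rose on both. Abcb8 came nearest, from 4.73 ± 0.18 in vehicle to 5.19 ± 0.23 at 10 mg/kg, with an adjusted p of 0.0699 after quantile normalization.

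Among the Abcc exporters 5 of 7 rose and 0 fell at 10 mg/kg, beside 20.4% and 7.69% of all genes, a difference that was not tested. Abcc6, an exporter whose activity releases ATP from hepatocytes, was the only one of these 5 to reach log2 5 in a group mean. It ran from 7.55 to 8.31 (median 7.66) in vehicle, 7.46 to 7.99 (median 7.71) at 0.1 mg/kg, 7.93 to 8.73 (median 8.24) at 1 mg/kg and 7.76 to 9.01 (median 8.38) at 10 mg/kg, and 7 of 10 arrays at the highest dose lay above all vehicle arrays. It was 1.55-fold higher at 10 mg/kg (log2 change 0.63, SE 0.12, adjusted p = 2.69e-05), and 1.25-fold after quantile normalization (adjusted p = 0.0395). With only the 2 groups compared the larger adjusted p was 0.0661, and with the poly-A controls as a covariate it was 0.779.

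The other 4 rises, of Abcc1, Abcc3, Abcc4 and Abcc10, were in genes whose group means were all below log2 5. Abcc1, which exports glutathione conjugates, ran from 2.13 to 3.11 (median 2.74) in vehicle and from 3.29 to 4.25 (median 3.46) at 10 mg/kg, without overlap on the deposited scale (1.83-fold, adjusted p = 7.18e-07, and 1.57-fold after quantile normalization, adjusted p = 5.75e-05). Abcc4, which exports bile acids and cyclic nucleotides, ran from 2.62 to 3.56 (median 3.20) in vehicle, from 3.34 to 4.22 (median 3.74) at 1 mg/kg and from 3.56 to 4.38 (median 3.83) at 10 mg/kg. It was called at both doses (1.56-fold, adjusted p = 9.36e-04, and 1.75-fold, adjusted p = 1.96e-05). After quantile normalization its log2 changes were 0.41 (adjusted p = 0.0318) and 0.59 (adjusted p = 0.00092). Its call at 1 mg/kg was lost with the poly-A covariate (0.131) and with arrays 1 to 4 alone (0.225). The log2 change of Abcc4 at 1 mg/kg was 0.57 on arrays 1 to 4 and 0.68 on arrays 5 to 10. Abcc3, which exports glucuronides into blood, ran from 2.32 to 3.57 (median 2.68) in vehicle and from 3.12 to 4.31 (median 3.39) at 10 mg/kg, with 2 arrays above all vehicle arrays (1.60-fold, adjusted p = 8.57e-05, and 1.35-fold after quantile normalization, adjusted p = 0.0117). With the poly-A controls as a covariate the larger adjusted p of Abcc3 was 0.263. Abcc10, a relative that exports lipophilic anions and was named after its values were seen, rose from 2.33 ± 0.15 to 3.01 ± 0.34 (adjusted p = 9.18e-08, and 1.58e-04 after quantile normalization), a call that was lost with the poly-A covariate.

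Abcc2, the canalicular exporter of conjugated bilirubin, did not pass on both scales. It ran from 8.50 to 9.28 (median 9.02) in vehicle, 8.35 to 9.14 (median 8.68) at 0.1 mg/kg, 8.53 to 10.02 (median 9.15) at 1 mg/kg and 8.12 to 9.47 (median 8.75) at 10 mg/kg, and all groups overlapped. The change at 10 mg/kg was -0.15 (SE 0.18, adjusted p = 0.463), and -0.47 after quantile normalization (adjusted p = 0.0316). Abcc8 and Abcc9 are not exporters but regulatory subunits of potassium channels. Abcc8 fell at 10 mg/kg from 3.74 ± 0.36 to 3.15 ± 0.34 (adjusted p = 9.72e-04, and 1.12e-05 after quantile normalization). Abcc9 went from 4.72 ± 0.99 to 4.23 ± 0.52 with no call (SD, n = 10 each).

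**Figure D3:**
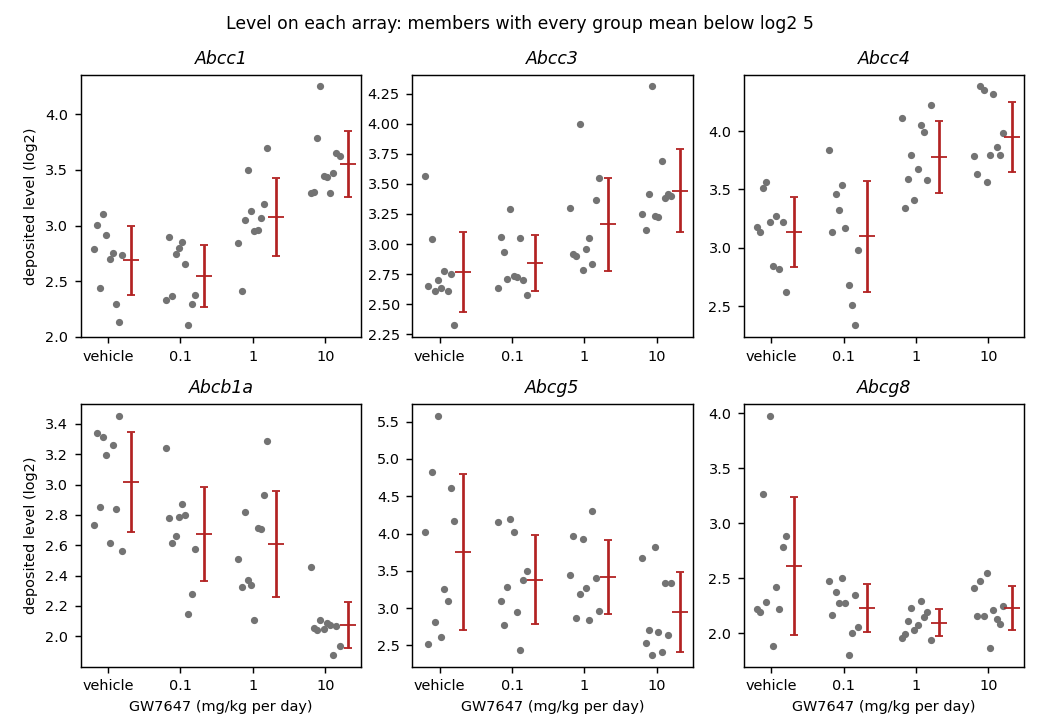
Deposited log2 level (vertical axis) on each of the 10 arrays per group (grey points) by daily dose of GW7647 (horizontal axis), with mean and SD in red, for 6 transporters whose group means are all below log2 5. Abcc1 and Abcc4 at 10 mg/kg lie at or above the highest vehicle array, Abcb1a lies below the lowest, and Abcg5 and Abcg8 overlap with vehicle.

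Among the Abcg genes 1 of 6 rose and 2 fell at 10 mg/kg, beside 20.4% and 7.69% of all genes. Abcg2, which exports urate, sulphate conjugates and drugs into bile, ran from 4.16 to 5.99 (median 4.94) in vehicle, 4.29 to 5.83 (median 5.45) at 0.1 mg/kg, 5.01 to 6.30 (median 6.01) at 1 mg/kg and 5.46 to 6.75 (median 5.87) at 10 mg/kg. All groups overlapped, and 4 of 10 arrays at 10 mg/kg lay above every vehicle array. The gene was 2.0-fold higher at 10 mg/kg (log2 change 1.00, SE 0.22, adjusted p = 1.21e-04), and 1.64-fold after quantile normalization (adjusted p = 0.00774). At 1 mg/kg it was 1.76-fold higher on the deposited scale (adjusted p = 0.00258) and missed the threshold after quantile normalization (1.47-fold, adjusted p = 0.0621).

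Abcg5 and Abcg8, which pair to export cholesterol and plant sterols into bile, fell, both at levels below log2 5 and with overlapping groups. Abcg5 ran from 2.52 to 5.58 (median 3.64) in vehicle and from 2.38 to 3.82 (median 2.69) at 10 mg/kg, a log2 change of -0.80 (SE 0.30, adjusted p = 0.0196) that was -1.06 after quantile normalization (adjusted p = 0.00372). Abcg8 ran from 1.89 to 3.98 (median 2.35) in vehicle and from 1.87 to 2.54 (median 2.18) at 10 mg/kg, a log2 change of -0.39 (adjusted p = 0.0261) that was -0.64 after quantile normalization (adjusted p = 6.31e-04). Vehicle array 5 was the highest for both genes. With the poly-A controls as a covariate neither passed, with a larger adjusted p of 0.0576 for Abcg5 and 0.11 for Abcg8, and with only the 2 groups compared Abcg8 had 0.0817. Abcg8 also fell at 1 mg/kg (log2 change -0.52, adjusted p = 0.00614), though not with arrays 1 to 4 of that group alone (0.0588). Its log2 change there was -0.54 on arrays 1 to 4 and -0.50 on arrays 5 to 10, so the call was lost with fewer arrays and not with a smaller change.

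Abcg5 and Abcg8 are neighbours on chromosome 6 and run in opposite directions from start sites with 205 bases between them, and for this reason their shared window is shown. It is the Abcg5 window, chr6:15717686-15717985 on the plus strand (RefSeq, GRCr8), of which 295 bases also belong to the window of Abcg8. Capitals mark the bases between both starts, and the window holds no AGGTCA on either strand.
Abcg5 and Abcg8: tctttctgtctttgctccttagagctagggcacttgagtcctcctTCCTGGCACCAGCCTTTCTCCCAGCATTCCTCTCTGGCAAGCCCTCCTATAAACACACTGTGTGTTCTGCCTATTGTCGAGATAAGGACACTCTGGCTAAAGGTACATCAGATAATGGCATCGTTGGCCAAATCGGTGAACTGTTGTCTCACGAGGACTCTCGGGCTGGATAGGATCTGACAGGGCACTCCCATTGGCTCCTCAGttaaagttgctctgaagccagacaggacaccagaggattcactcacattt

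The step to 1 mg/kg held more calls than the step from 1 to 10 mg/kg. From 0.1 to 1 mg/kg 12 transporters rose and 1 fell, beside 10.5% and 2.95% of all genes, and from 1 to 10 mg/kg 3 rose and 4 fell, beside 8.55% and 5.98%. In the first step Slc22a17 rose 1.72-fold (adjusted p = 1.04e-07), Slc22a23 1.61-fold (adjusted p = 2.98e-05), Abcb4 1.53-fold (adjusted p = 2.66e-05), Slco2a1 1.39-fold (adjusted p = 1.52e-04) and Slc22a7 1.30-fold (adjusted p = 4.17e-06). After quantile normalization their log2 changes were 0.48, 0.42, 0.32, 0.29 and 0.20 (adjusted p = 0.00144, 0.0148, 0.043, 0.0314 and 0.0119). The gene that fell in it was Slc22a12, a urate carrier near the lower end of the scale. Array 8 of the 0.1 mg/kg group was high for it, at 3.93 against a group median of 1.90, and without arrays 8 and 9 of that group 0 transporters fell in this step. In the second step Abcc1, Abcc10 and Slc22a21 rose, and Slco2b1 (log2 change -0.30, adjusted p = 0.00319, and -0.38 after quantile normalization, adjusted p = 2.13e-04), Abcb1a, Abcc8 and Slc22a15 fell. Slc22a12 and Slc22a21, like Abcg4, Abcc8, Slco4a1 and Slc22a13, were named after their values were seen.

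Over all 40 arrays the members whose levels were most like those of Slc22a17 were Slc22a18 (Pearson r = 0.89), Slco2a1 (0.83), Abcc10 (0.82), Slc22a7 (0.81) and Slc22a23 (0.80). After quantile normalization these were 0.78, 0.70, 0.71, 0.61 and 0.65, and within the dose groups 0.64, 0.32, 0.38, 0.45 and 0.13. The arrays share the dose and the shift of scale, and the values are a description.

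For 13 members 14 other probe sets were present, of which 3 had a call at 10 mg/kg, all lower: the second probe sets of Slco2b1, Slco1b2 and Slc22a8. After quantile normalization the second probe set of Slco2a1 had a log2 change of 0.22 (adjusted p = 0.108), where the first had 0.49. The second of Slco1a4 had 0.42 (adjusted p = 0.0564).

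**Figure D4:**
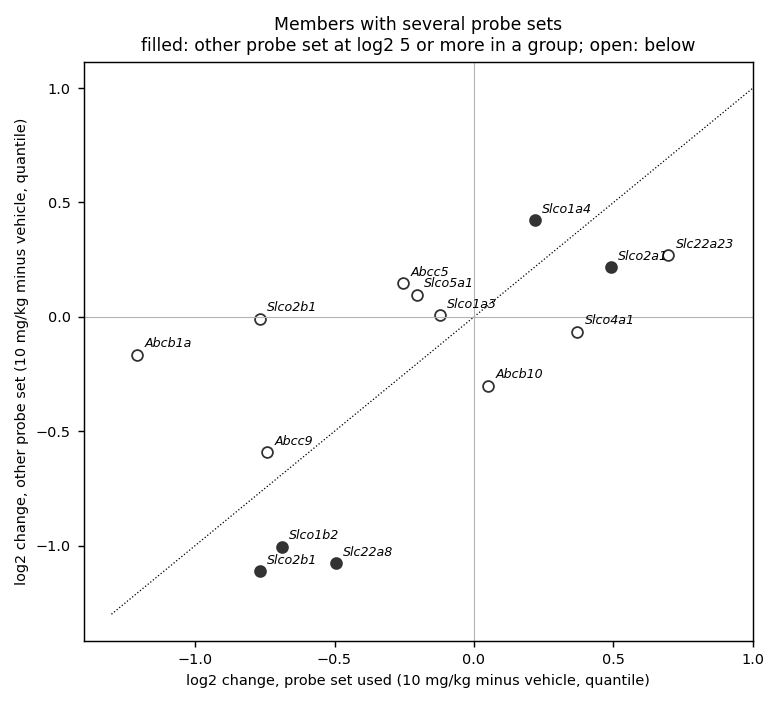
Log2 change between 10 mg/kg and vehicle after quantile normalization, for the probe set used (horizontal axis) and for each other probe set of the same gene (vertical axis), with equality dotted. Filled points, whose other probe set reached log2 5 in a group mean, have the same sign on both axes, and the lowest are Slco2b1, Slc22a8 and Slco1b2.

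Carriers and ABC proteins outside the 49 were followed from lists of other genes. Of 23 other carriers measured, 2 rose and 4 fell at 10 mg/kg (8.70% and 17.4%, beside 20.4% and 7.69% of all genes). The largest fall was of Slc17a3, a phosphate and urate carrier (log2 change -1.17, adjusted p = 9.17e-14), followed by Slc17a1 (-0.46) and Slc26a1, a sulphate carrier (-0.46), while Slc16a1, a lactate carrier, rose 1.61-fold (adjusted p = 4.62e-09). Of 18 other ABC proteins 5 rose and 1 fell (27.8% and 5.56%, beside the same shares of all genes): Abcd3, the peroxisomal importer of fatty acyl-CoA, rose 4.19-fold (adjusted p = 3.96e-19), Abca1, the cholesterol exporter, 2.01-fold (adjusted p = 4.87e-04), and Abca8a fell (log2 change -0.86, adjusted p = 1.29e-09). All of the 49 had smaller changes at 10 mg/kg than Abcd3, and than Slc22a5, the carnitine carrier left out of the family here, at 4.28-fold (adjusted p = 7.20e-17).

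Of 16 regulators of transporter genes 4 rose and 1 fell at 10 mg/kg, shares of 25% and 6.25% that lie near the 20.4% and 7.69% of all genes. Nr0b2, a repressor induced by bile acids, was 3.63-fold higher (adjusted p = 2.77e-05), Nr1i3, a xenobiotic receptor, 2.28-fold (adjusted p = 1.20e-06), Keap1, the inhibitor of the antioxidant factor Nrf2, 1.51-fold (adjusted p = 4.55e-09) and Nr1h3, an oxysterol receptor, 1.43-fold (adjusted p = 9.56e-08). Hnf4a, a factor for hepatocyte genes, fell (log2 change -0.46, adjusted p = 7.96e-04). Of 9 proteins that anchor or traffic transporters at the membrane, 1 rose and 2 fell (11.1% and 22.2%). Myo5b, a motor of apical recycling, was 8.08-fold higher (adjusted p = 3.00e-19), and the scaffolds Nherf1 (log2 change -0.46, adjusted p = 0.00101) and Pdzk1 (-0.38, adjusted p = 7.02e-04) fell. After quantile normalization the log2 changes of Hnf4a, Nherf1, Pdzk1 and Slc17a3 were -0.74, -0.78, -0.67 and -1.48. All other changes in these lists, and that of Slc22a5, are given on the deposited scale alone.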

How the data were processed

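Liver RNA of 40 rats in 4 groups of 10, per the labels separate animals, was read on 1 array each. The deposited values are log2 levels per probe set, which per the submitters' processing notes the authors computed by GCRMA and in Partek (versions not given in the sources used here). They were used as deposited, and again after quantile normalization. Arrays have no depth in reads; their number sets the precision.

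Of 31139 probe sets 19069 had 1 symbol in the platform annotation, 572 several and 11498 none; 18989 were matched to RefSeq (GRCr8) for names. Each of 13438 genes was read by its brightest probe set. One linear model of 4 groups (R 4.3.3, lmFit and eBayes of limma 3.58.1; the residual degrees of freedom were 36) gave two-sided tests, Benjamini-Hochberg adjusted over all genes at 0.05, required on both scales. On simulated data the fit was checked. Those data held no shift of scale with dose, so the rule of both scales was not checked under such a shift. Figures used Python 3.11.15 and matplotlib 3.10.9.

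The members and lists were chosen with earlier results of these data known. The text names, per comparison, up to 20 members with the largest change among those called that reach log2 5 in a group mean, 22 fixed names (19 measured) and up to 4 called genes per list of other genes. Of the carriers, ABC proteins, regulators and anchors, those shown were chosen among these. Promoters came from a RefSeq table and were searched with a script for the letters given. Alternatives were other scales, the replicate number as a block, only the 2 groups compared, other spread priors, filters, probe sets and weights, a 1.2-fold test, poly-A controls as a covariate and subsets of arrays.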

Additional observations from a re-analysis of the deposited data

Results flagged for a closer look

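Of 92 groups of 10 arrays tested for named transporters, 10 had an array that stood apart from the others by Dixon's test, whose level of chance flags about 1 in 20 groups. Vehicle array 1 was high for Slc22a18 (10.5, nearest 9.92) and for Slc22a7 (9.99, nearest 9.66) and low for Slco1a4 (7.94, nearest 9.14). At 0.1 mg/kg array 8 was low for Slco2b1 (7.03, nearest 7.39). At 1 mg/kg array 5 was low for Slc22a18 (9.89, nearest 10.2) and array 10 was high for Slco2a1 (10.9, nearest 10.5). At 10 mg/kg array 4 was high for Abcc1 (4.25, nearest 3.79) and for Abcc3 (4.31, nearest 3.69), array 1 was high for Abcb1a (2.46, nearest 2.11) and array 2 was low for Slc22a4 (3.42, nearest 4.71). All values are log2 levels on the deposited scale.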

How the results depend on the processing

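The counts of transporters called at 0.1 mg/kg were 0 under all alternatives run. At 1 mg/kg the 8 rises became 25 on the deposited scale alone, 15 with arrays set to a common median, 4 with genes below log2 5 left out, 2 against 1.2-fold, 5 with the poly-A covariate and 4 with arrays 1 to 4 of that group alone. The 2 falls became 4, 0 and 0 with the common median, the filter and the 1.2-fold test, and 1 with arrays 1 to 4. At 10 mg/kg the 16 rises became 30 on the deposited scale alone, 8 with the filter, 4 against 1.2-fold and 9 with the poly-A covariate. The 6 falls became 12 after quantile normalization alone, 2 with the filter, 2 against 1.2-fold and 3 with the poly-A covariate. Counts over all 13438 genes moved as well. On the deposited scale alone 5139 were higher at 1 mg/kg and 7593 at 10 mg/kg. After quantile normalization alone 3274 were lower at 10 mg/kg. With the common median 2534 were higher and 1214 lower at 1 mg/kg. For the 1.2-fold test, the poly-A covariate and the subsets of arrays, counts over all genes are not given here. The filter tests fewer genes, and the poly-A controls move with dose, so a covariate and the dose cannot be told apart; other causes were not tested. From 0.1 to 1 mg/kg the 12 rises became 25 on the deposited scale alone, 5 with the filter, 1 against 1.2-fold and 4 with arrays 1 to 4; the 1 fall became 2 after quantile normalization alone and with the common median. It became 0 with only the 2 groups compared, the filter, array weights, the 1.2-fold test, the poly-A covariate, arrays 1 to 4, and without arrays 8 and 9 of the 0.1 mg/kg group. From 1 to 10 mg/kg the 3 rises became 14 on the deposited scale alone, 1 with hybridisation control scaling and with arrays 1 to 4, 5 with array weights and without arrays 8 and 9, and 0 with the filter and the 1.2-fold test. The 4 falls became 7, 1, 0 and 1 with the common median, the filter, the 1.2-fold test and arrays 1 to 4.

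Of the 22 calls at 10 mg/kg, 6 were kept against 1.2-fold (Slc22a17, Slc22a23, Slc22a25, Abcc1, Abcb1a and Slco2b1) and 12 with the poly-A covariate, which lost Abcb4, Abcc3, Abcc6, Abcc10, Abcg5, Abcg8, Slc22a4, Slc22a15, Slc22a18 and Slco1b2. Scaling to hybridisation controls lost Slc22a13 and Slc22a15 at 10 mg/kg and added Slco1a1. At 1 mg/kg it lost Abcg4, Slc22a7 and Slco2a1 and added Abcc6. Slc22a13 had means of 1.65 in vehicle and 2.16 at 10 mg/kg (adjusted p = 3.62e-08, and 0.00437 after quantile normalization). Scaling to hybridisation controls and leaving out arrays 8 and 9 were chosen after seeing the data. Same-numbered arrays of different groups correlated between -0.27 and 0.37 over 60 pairs, with 17 over 0.1. No values of differently numbered arrays were set beside these, so whether replicate numbers pair the animals was not decided. With the replicate number as a block 15 transporters rose and 6 fell at 10 mg/kg, without Abcb4, and 10 rose and 2 fell at 1 mg/kg. No named gene changed sign with a call under any alternative.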
